A study of Mus musculus with 8 samples.

Results

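Gria1, Gria2, Gria3, Gria4 and Grid1 encode the AMPA-type and delta-type glutamate receptor subunits GluA1 to GluA4 and GluD1. They were taken by gene symbol from the count table of a single-nucleus RNA-seq study of mouse cerebral cortex, and all 5 were found among its 32285 genes. The study compared 4 wild-type (WT) mice with 4 mice heterozygous for Chd8 (Chd8+/-, called Chd8 het below), a gene for a chromatin remodelling protein, at postnatal day 25. All animals were C57BL/6J, each genotype had 2 males and 2 females, and each mouse gave 1 library from cortex dissected without its medial part. The mice came as 4 litter- and sex-matched pairs. The labels do not say which animals pair, and those of the same sex and replicate number are treated below as a pair. The labels do not describe the Chd8 allele. Nuclei were assigned to cell classes by marker genes that include none of the 5 members, and unique molecular identifier (UMI) counts were summed per library and class.

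AMPA receptors carry most fast excitatory transmission in the cortex. Each receptor is a tetramer of GluA subunits, and the mix of subunits sets its calcium permeability and kinetics: receptors that contain GluA2 made from edited RNA pass little calcium, and many interneurons are known for receptors poor in GluA2. GluD1 is related to these subunits by sequence but works mainly as a synaptic adhesion protein that binds secreted cerebellins. Oligodendrocyte precursor cells (OPCs) receive glutamatergic synapses from neurons, and astrocytes also carry AMPA receptors.

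The pore-lining stretch of the coding sequence is shown for Gria1, Gria2, Gria4 and Grid1 because it holds the Q/R site, the codon that distinguishes GluA2 from the other AMPA subunits once its RNA is edited. Each line gives 138 coding bases, 5′ to 3′, joined over 2 exons, from the GENCODE M21 transcripts on GRCm38 (mm10), with the Q/R codon of the AMPA subunits in capitals; the Grid1 line has none marked.
Gria1: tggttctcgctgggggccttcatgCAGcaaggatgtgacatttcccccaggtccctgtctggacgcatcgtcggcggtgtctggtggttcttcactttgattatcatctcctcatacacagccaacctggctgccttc
Gria2: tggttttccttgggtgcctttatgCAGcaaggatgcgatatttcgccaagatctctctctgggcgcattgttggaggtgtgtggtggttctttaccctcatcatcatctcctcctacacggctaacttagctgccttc
Gria4: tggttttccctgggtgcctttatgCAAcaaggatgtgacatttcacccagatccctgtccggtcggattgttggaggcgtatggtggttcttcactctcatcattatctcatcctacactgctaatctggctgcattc
Grid1: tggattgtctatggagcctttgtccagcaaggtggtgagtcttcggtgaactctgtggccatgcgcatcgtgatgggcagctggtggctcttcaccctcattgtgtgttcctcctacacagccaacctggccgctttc

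In the genome Gria1, Gria2 and Gria4 each carry a glutamine codon at this site. Translated, the 46 codons were identical in 46 of 46 residues among Gria1, Gria2 and Gria4, while Grid1 shared 29 of 46 residues with each of them. At the base level these AMPA genes were 80.4% to 84.1% identical to each other and 63.8% to 65.2% identical to Grid1. The libraries count the 3′ ends of transcripts, so the values below do not read this site or its editing.

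All 5 are long protein-coding genes, which matters for comparing levels between genes in nuclear RNA. Gria1 lies at chr11:57011387-57330244 on the + strand and Gria2 at chr3:80681450-80802835 on the - strand. Gria3 is X-linked, at chrX:41400854-41678601 on the + strand, and Gria4 lies at chr9:4417896-4796234 on the - strand. Grid1 lies at chr14:34820108-35583379 on the + strand. Their spans are 318.9, 121.4, 277.7, 378.3 and 763.3 kb in that order. Levels are given as CPM, the UMIs of a gene per 1000000 UMIs of the class in that library. CPM is relative to the UMIs of the class and is not an amount per nucleus. Levels of different genes are compared per kb of span. Shares of UMIs are not scaled by length and are compared between classes for the same gene.

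The 8 libraries held 69503598 to 98132783 UMIs, and 82168 of 97772 barcodes passed the nucleus filter, with library medians of 5061 to 7766 UMIs. Any pair of libraries shared 20 to 38 barcode sequences. The gate placed 64727 nuclei in a broad class, and 15 classes with at least 30 nuclei in every library were tested. They were excitatory neurons of layers 2/3, 4/5, 5 and 6 that project within the telencephalon (IT), of layer 5 that project outside it (ET), near-projecting layer 5/6 (NP) and layer 6 corticothalamic (CT) neurons, Pvalb, Sst and Lamp5 interneurons, astrocytes, oligodendrocytes, OPCs, microglia and pooled vascular nuclei. These names stand for nuclei that resemble a class by its markers. Of 19 markers held out of the gate and checked, 17 were highest in their own broad class. The exceptions were the excitatory markers Neurod2, at 24.2 CPM in excitatory nuclei and 27.2 CPM in microglia, and Nrn1, at 103 CPM and 110.1 CPM. The check covered excitatory and inhibitory neurons, astrocytes, oligodendrocytes, OPCs and microglia. Vascular nuclei and the types of neurons were not checked in this way. In a class sum, fewer nuclei with a transcript and less RNA per nucleus cannot be told apart. Chd8 itself was counted at 78.5 ± 2.72 CPM in the WT libraries and 79.6 ± 6.58 CPM in the Chd8 het libraries (SD, n = 4 each, all gated nuclei). Its log2 difference was -0.0 (SE 0.07, edgeR adjusted p = 1.0), so the counts do not check the genotype labels, and the libraries are called by their labels.

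The libraries stood apart by index type, which bears on all levels below. Libraries numbered 1 within a sex and genotype carry single indexes and those numbered 2 carry dual indexes. Index type is therefore balanced over genotype and is the same thing as the replicate number. Gria1 was higher in every dual-indexed than in every single-indexed library in 12 of 15 classes, against 7.62% of all gene and class pairs. Its mean was higher in the dual-indexed libraries in all 15 classes, by a median of 0.61 on the log2 scale (range 0.40 to 1.07). Grid1 showed the same order in 10 of 15 classes, with a median log2 ratio of 0.42 (range 0.15 to 1.21). Gria2 went the other way: every dual-indexed library was below every single-indexed one in 10 of 15 classes, against 8.48% of all gene and class pairs, with a median log2 ratio of -0.25 (range -0.45 to -0.08). Gria3 was lower in this strict sense in 2 classes, and Gria4 was higher in 1 and lower in 1. Comparisons between classes below are made within each library, and genotype differences in the members' levels are also given within each index type where they are described.

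**Figure D1:**
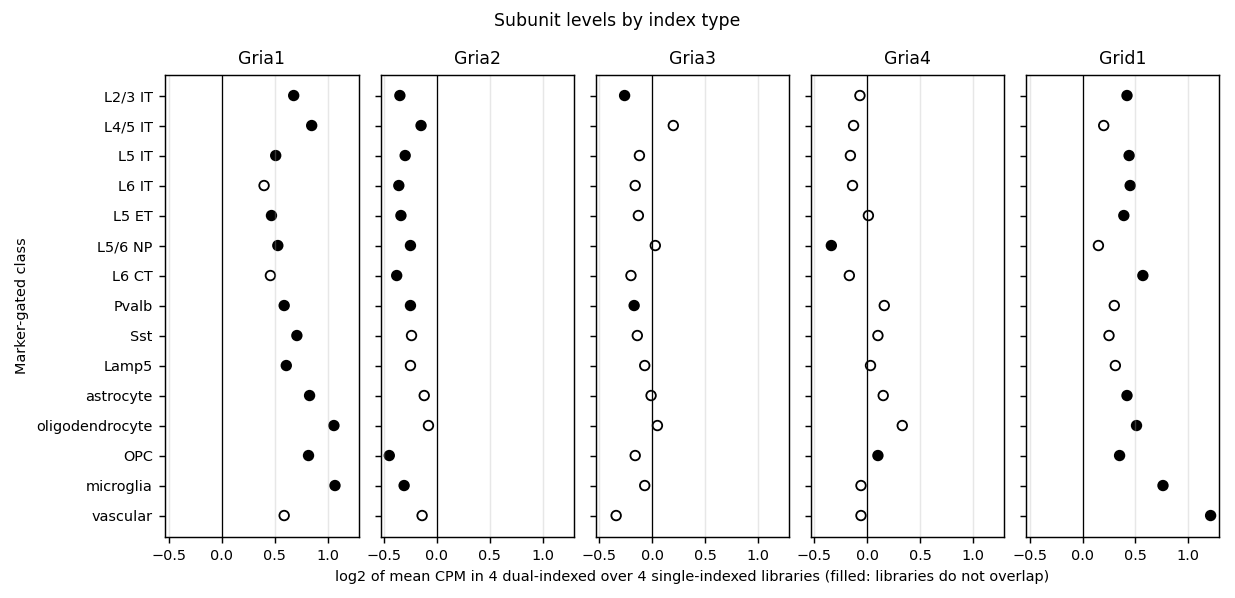
Log2 ratio of the mean CPM in the 4 dual-indexed libraries to that in the 4 single-indexed libraries (x axis) for each subunit gene in each of the 15 marker-gated classes (y axis), with filled points where the libraries of the 2 index types do not overlap. Gria1 and Grid1 lie right of 0 and Gria2 lies left of 0 in all 15 classes.

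Gria1, whose product GluA1 is known for its role in activity-dependent insertion at synapses, was highest in Sst interneurons. It was counted there at 1871 to 3699 CPM with a median of 2812 CPM over the 8 libraries, from 979 to 2115 UMIs per library. The 4 dual-indexed libraries gave the upper values and the 4 single-indexed libraries the lower ones. Pvalb interneurons followed at 1225 to 2090 CPM (median 1494) and layer 6 IT neurons at 1021 to 1801 CPM (median 1381.0). The Sst level was above the Pvalb level in 8 of 8 libraries, by 0.81 on the log2 scale (exact two-sided sign-flip permutation test over libraries, adjusted p = 0.026 over 70 pairs of neighbouring classes). Pvalb and layer 6 IT neurons did not pass that test (adjusted p = 0.106). Layer 6 IT neurons were above layer 5 ET neurons in 8 of 8 libraries, by 0.57 (sign-flip permutation test, adjusted p = 0.026).

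Among the remaining excitatory neurons the means of Gria1 ran from 937 ± 203 CPM in layer 5 ET down to 357 ± 118 CPM in layer 4/5 IT neurons (SD, n = 8). Lamp5 interneurons held 489.9 ± 125 CPM, among the low excitatory classes and not near the Sst and Pvalb classes. The glial and vascular classes ranged from 269 ± 114 CPM in vascular nuclei to 141 ± 56.4 CPM in oligodendrocytes, the lowest class. From Sst interneurons to oligodendrocytes the mean differed 19.8-fold, the widest range of the 5 genes. Of 14 neighbouring pairs in this order, 6 passed the test. Gria1 in oligodendrocytes stood at 19.3% ± 3.22 of its excitatory level, near the 14.3% ± 2.61 of the summed excitatory gate markers. The 19.8-fold range is therefore against a level near neuronal background.

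Gria2, the subunit whose edited form blocks calcium entry, had the narrowest range, 4.34-fold. Layer 6 CT neurons were at 1823 to 2848 CPM (median 2521), astrocytes at 2186 to 2649 CPM (median 2315) and OPCs at 1627 to 2909.9 CPM (median 2306). These ranges overlapped widely, and none of the neighbouring pairs among the leading classes, from layer 6 CT neurons through astrocytes, OPCs and layer 5 ET to layer 6 IT neurons, passed the test (sign-flip permutation, adjusted p = 0.195 to 0.746). The interneuron classes lay lower, with 1579.8 ± 205 CPM in Sst, 1499 ± 162 CPM in Pvalb and 1439.6 ± 174 CPM in Lamp5 nuclei (SD, n = 8). The widest step came next: Lamp5 nuclei were above microglia in 8 of 8 libraries by 1.00 on the log2 scale (sign-flip permutation test, adjusted p = 0.026). Microglia, vascular nuclei and oligodendrocytes held 721 ± 99.9, 693 ± 115 and 557 ± 52.5 CPM.

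Gria3 separated excitatory classes that lie side by side in the cortex. Layer 2/3 IT neurons were at 1239.7 to 1648 CPM with a median of 1492 CPM, and layer 4/5 IT neurons at 273 to 456 CPM with a median of 320.1 CPM. No library of one class reached the range of the other. Layer 6 CT neurons had the highest mean, 1509 ± 159.5 CPM, followed by layer 2/3 IT neurons (1442 ± 159 CPM), layer 5 ET neurons (1366 ± 89.8 CPM) and Sst interneurons (1297 ± 133 CPM). The neighbouring pairs among these 4 classes did not pass the test (sign-flip permutation, adjusted p = 0.137 to 0.199), and Sst interneurons were above the next class, layer 6 IT neurons, in 8 of 8 libraries (adjusted p = 0.026). Layer 4/5 IT neurons did not pass the test against microglia (344 ± 45 CPM, adjusted p = 0.718, sign-flip permutation) and were above astrocytes (229 ± 20.8 CPM) in 8 of 8 libraries. Vip interneurons, with 15 to 41 nuclei per library and so not tested, were at 122 to 341 CPM with a mean of 221 ± 66.7 CPM. Gria3 is X-linked. Its mean in males and females was 1420.0 and 1463 CPM in layer 2/3 IT neurons and 1438.5 and 1579 CPM in layer 6 CT neurons, and the sexes were not tested against each other.

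Gria4, a subunit with fast kinetics, was highest in a mixed group of classes. Pvalb interneurons were at 1652 to 2065 CPM (median 1794), layer 4/5 IT neurons at 1441 to 1957 CPM (median 1750.3), layer 5/6 NP neurons at 1232 to 1943 CPM (median 1699.7) and Sst interneurons at 1272 to 1843 CPM (median 1359.8). Their ranges overlapped, and the neighbouring pairs among them did not pass the test (sign-flip permutation, adjusted p = 0.320 to 0.608). The thinly sampled Car3 IT neurons, with 11 to 87 nuclei per library and not tested, had a mean of 2119 ± 516 CPM (SD, n = 8). Layer 5 ET neurons were the lowest excitatory class tested, at 433 ± 87.9 CPM, and were below layer 6 CT neurons (683 ± 85.6 CPM) in 8 of 8 libraries. Astrocytes were lowest of all, at 134 to 238 CPM, below microglia in 8 of 8 libraries by 0.63 on the log2 scale (sign-flip permutation test, adjusted p = 0.026). Gria4 stood at 16.4% of its excitatory level in astrocytes and 25.2% in microglia. The summed excitatory gate markers stood at 17.1% and 24.7% there, so neither level was clear of neuronal background. The part of that background in this step was not tested. Layer 4/5 IT neurons were thus among the highest classes for Gria4 and the lowest neuronal class tested for Gria1 and Gria3.

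Grid1 had its highest CPM outside the neurons. OPC nuclei held fewer UMIs than layer 5/6 NP nuclei (2890.8 and 7045.8, medians of the library medians). The amount of Grid1 per nucleus was not compared. OPCs were at 821 to 1124 CPM with a median of 969.9 CPM, above layer 5/6 NP neurons, at 688 to 857 CPM with a median of 739 CPM, in 8 of 8 libraries (0.35 on the log2 scale, sign-flip permutation test, adjusted p = 0.026). The NP neurons were above layer 5 ET neurons (549 ± 88.4 CPM), and those above layer 6 IT neurons (451 ± 83.2 CPM), each in 8 of 8 libraries. From there to layer 5 IT neurons (319.0 ± 55 CPM) no neighbouring pair passed the test, and astrocytes lay among them at 377 ± 60.8 CPM. Pvalb interneurons were the lowest neuronal class, at 197 to 324 CPM. Oligodendrocytes, vascular nuclei and microglia held 142 ± 34.2, 119 ± 62.5 and 113 ± 36.0 CPM, and OPCs exceeded microglia 8.67-fold in mean. Grid1 in microglia stood at 26.2% ± 5.06 of its excitatory level, near the 24.7% ± 3.29 of the summed excitatory gate markers. The fold is therefore against a level not clear of neuronal background.

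**Figure D2:**
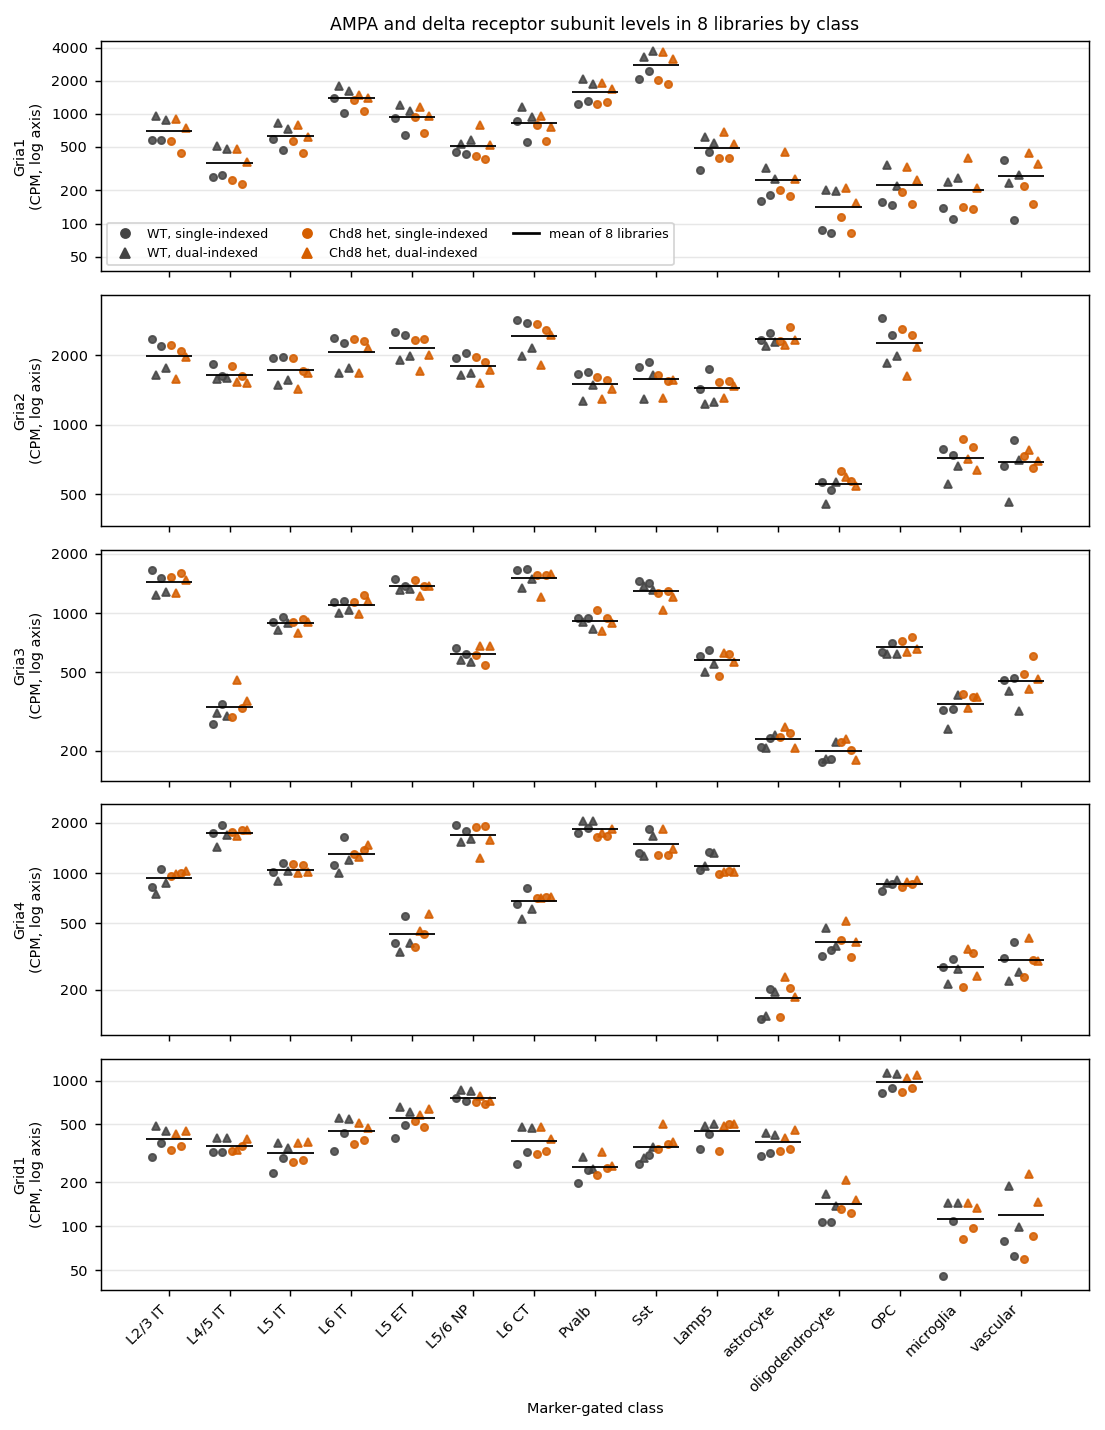
CPM of each subunit gene on a log axis (1 panel per gene, each with its own range) in the 15 marker-gated classes (x axis), with 1 point per library, the colour for genotype, circles for single-indexed and triangles for dual-indexed libraries, and a line at the mean of 8 libraries. Gria1 peaks in Sst interneurons at 1871 to 3699 CPM, Grid1 in OPCs at 821 to 1124 CPM, and WT and Chd8 het points mix in nearly all classes.

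The same differences can be read as a mix of AMPA subunits within a class, which needs no scaling between libraries. As a share of the summed Gria1 to Gria4 UMIs, Gria1 made up 38.4% ± 7.09 (SD, n = 8) in Sst and 26.9% ± 4.90 in Pvalb interneurons, against 8.82% ± 3.04 in layer 4/5 IT neurons. In layer 4/5 IT neurons Gria4 took 42.7% ± 2.93 of the UMIs, and in layer 5/6 NP neurons 36.4% ± 3.49. Gria2 took 40.3% ± 2.79 and 38.9% ± 1.76 of the UMIs in these classes, and 66.1% ± 2.73 and 64.0% ± 1.97 per kb. Layer 5 ET neurons showed the contrary mix, with Gria4 at 8.87% ± 1.83 and Gria3 at 27.9% ± 0.650. Gria3 was close to that share in layer 6 CT (27.8% ± 1.21) and layer 2/3 IT neurons (28.4% ± 1.67), and was 8.20% ± 1.34 in layer 4/5 IT and 6.08% ± 1.60 in Vip nuclei. Astrocytes were the most uneven class: 78.2% ± 3.85 of their AMPA subunit UMIs were Gria2, with a range of 69.9% to 82.2% over the libraries.

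In nuclear RNA, long genes can yield more reads from introns, and Gria2 is the shortest of the AMPA genes. Whether introns were counted is not given in the sources used here. Per kb of gene span Gria2 was the largest share in all 15 classes, from 43.0% ± 5.67 in Sst interneurons to 90.3% ± 2.00 in astrocytes. On this scale Gria1 in Sst interneurons was 28.6% ± 6.66, and Gria4 in layer 4/5 IT neurons 22.5% ± 1.80. Unscaled, Gria2 was not the largest share in layer 4/5 IT (Gria4 42.7%, Gria2 40.3%), Pvalb (31.4%, 25.9%) or Sst nuclei (Gria1 38.4%, Gria2 22.4%). Gria2 has the most exon sequence, 15.5 kb against 6.0, 9.9 and 6.3 kb for Gria1, Gria3 and Gria4. The rank of Gria2 thus depends on the scale, and which scale is right was not tested. The Gria2 share per kb was lower in Sst and Pvalb interneurons (48.6% ± 4.89) than in any other class, and Lamp5 interneurons (64.4% ± 3.89) were in the range of the excitatory classes, which ran from 58.9% to 66.7%.

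**Figure D3:**
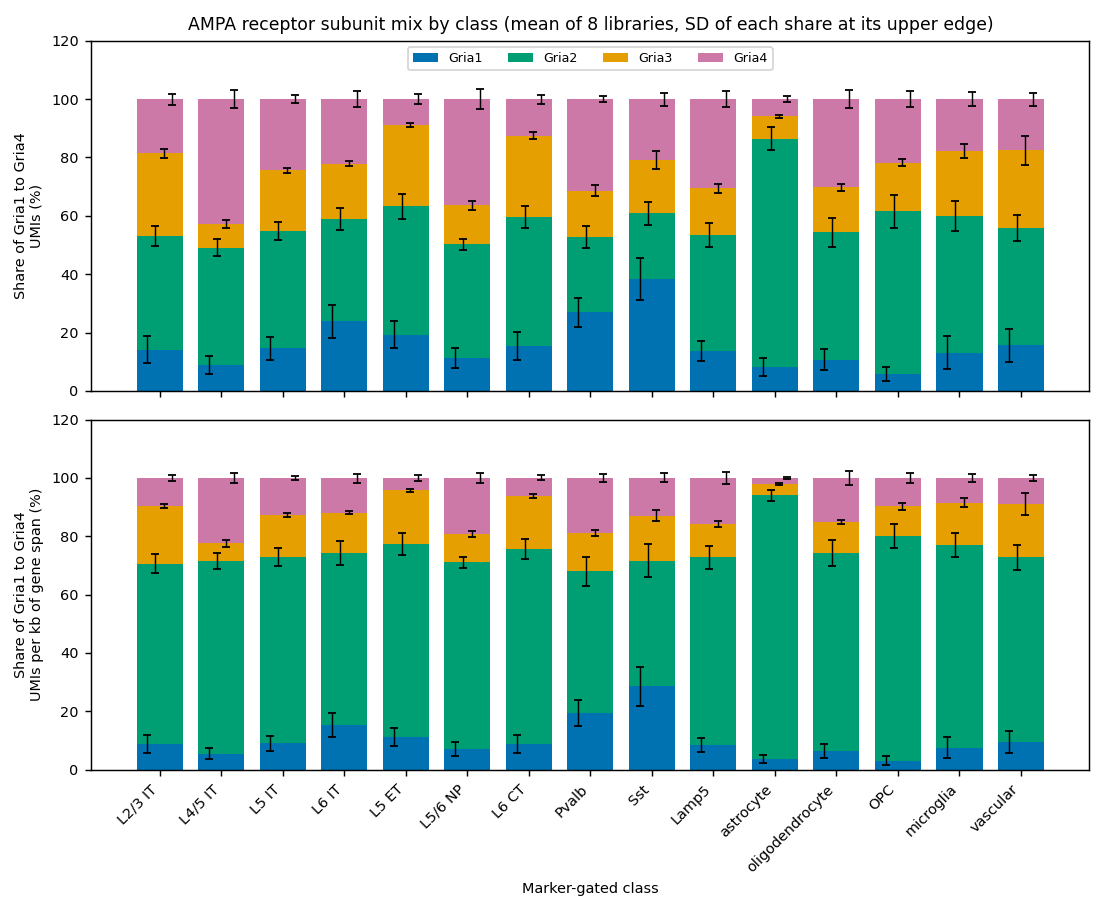
Share of Gria1 to Gria4 in the summed AMPA subunit UMIs (upper panel, %) and in the sum of UMIs per kb of gene span (lower panel, %) in each of the 15 classes, as stacked means of 8 libraries with the SD of each share drawn at its upper edge. Gria2 fills 78.2% of the astrocyte bar and Gria1 38.4% of the Sst bar in the upper panel, and Gria2 is the largest share of each bar in the lower panel.

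Taken over broad classes, all inhibitory nuclei held more Gria1 and Gria4 and less Gria2, Gria3 and Grid1 than all excitatory nuclei. Gria1 was 1391 ± 282 CPM in inhibitory and 707 ± 186 CPM in excitatory nuclei (SD, n = 8) and higher in 8 of 8 libraries, with a fitted log2 difference of 0.82 (SE 0.08, edgeR adjusted p = 2.16e-13). Gria4 was 1499 ± 109 and 1093 ± 109 CPM, with a log2 difference of 0.28 (SE 0.08, edgeR adjusted p = 0.00263). Gria2, Gria3 and Grid1 were lower in 8 of 8 libraries, by -0.53, -0.57 and -0.34 on the log2 scale. Of all 14335 genes tested, 28.8% were called higher and 30.9% lower in this comparison, so a call of some direction was common. The calls of Gria4 and Grid1 ended in the fit with excitatory background subtracted from the glial sums (log2 0.27 and -0.32, edgeR adjusted p = 0.469 and 0.12). The neuronal sums were not altered in that fit. The broad inhibitory class covers unlike types: Gria1 was at 489.9 CPM in Lamp5 nuclei and at 2779.9 CPM in Sst nuclei.

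OPCs held more of every member than the oligodendrocytes they give rise to, except that Gria1 lost its call and turned to -0.50 on the log2 scale once excitatory background was subtracted (SE 0.41, edgeR adjusted p = 0.316). Grid1 stood at 976 ± 130 CPM in OPCs and 142 ± 34.2 CPM in oligodendrocytes, a log2 difference of 2.68 (SE 0.07, edgeR adjusted p = 9.37e-36). Gria2 followed with a log2 difference of 1.89 (SE 0.06), Gria3 with 1.63 (SE 0.06), Gria4 with 1.04 (SE 0.09) and Gria1 with 0.57 (SE 0.09, edgeR adjusted p = 4.49e-07), each higher in 8 of 8 libraries. Called higher in OPCs were 27.9% of all genes, and called lower 25.4%. Astrocytes differed from oligodendrocytes in both directions. Gria2 (log2 2.00, SE 0.06), Grid1 (1.34, SE 0.07) and Gria1 (0.76, SE 0.09) were higher. With the background subtracted Gria1 differed by 1.78 (SE 0.35). Its oligodendrocyte level was 19.3% ± 3.22 of the excitatory level, near the 14.3% ± 2.61 of the summed excitatory gate markers. The size of that value is therefore uncertain. Gria4 was lower in astrocytes (-1.20, SE 0.09, edgeR adjusted p = 1.80e-17), at 179 ± 38.4 against 389 ± 71.0 CPM. With the background subtracted Gria4 kept this direction and call, but its astrocyte level, given below, was no higher than that of the markers used for the subtraction, so no fold is given. Of all genes 29.8% were called higher and 28.4% lower in astrocytes. Gria3 was not called there (log2 0.13, SE 0.06, edgeR adjusted p = 0.0696), although its unscaled CPM was higher in astrocytes in 8 of 8 libraries, where the sign-flip permutation test of neighbours gave an adjusted p of 0.026.

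Nuclei of glial and vascular classes also carried neuronal transcripts, and the levels above have to be read beside them. The summed level of the 5 excitatory gate markers was 17.1% ± 2.88 of the excitatory level in astrocytes, 14.3% ± 2.61 in oligodendrocytes, 27.9% ± 2.10 in OPCs and 24.7% in both microglia (± 3.29) and vascular nuclei (± 4.69, SD, n = 8). Slc17a7, the vesicular glutamate transporter that defines these neurons, stood at 70.8% ± 7.19 in microglia. The gate itself used these 5 markers and left out nuclei scoring in 2 classes, so their sum may understate the background. Of markers held out of the gate, Neurod2, Nrn1 and Tbr1 were at 27.2, 110.1 and 14.6 CPM in microglia. In excitatory nuclei they were at 24.2, 102.6 and 18.8 CPM. By how much the sum understates the background was not tested. In microglia all 5 members lay between 25.2% and 37.1% of their excitatory level, near the summed markers, and in vascular nuclei between 27.2% and 42.4%. Grid1 in OPCs (235.0% ± 16.5), Gria2 in astrocytes (121.7% ± 13.6) and OPCs (114.9% ± 7.68) and Grid1 in astrocytes (90.3% ± 5.83) lay far above the markers of their class. Gria4 in OPCs (80.1% ± 9.23) and Gria3 in OPCs (63.0% ± 4.32) also exceeded them. Gria1 in OPCs (31.2% ± 4.36), Gria3 in astrocytes (21.7% ± 3.02) and Gria4 in astrocytes (16.4% ± 3.51) did not stand clear of the summed markers.

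When an excitatory profile, scaled by these markers, was subtracted from the glial sums, the Gria1 difference of OPCs from oligodendrocytes turned to -0.50 (SE 0.41, edgeR adjusted p = 0.316), and its call ended. The other 4 members stayed higher in OPCs, Grid1 by 3.44, Gria3 by 3.03, Gria2 by 2.62 and Gria4 by 1.33 on the log2 scale. In oligodendrocytes Gria3 stood at 18.8% ± 3.02 and Gria1 at 19.3% ± 3.22 of their excitatory levels. Both were near the 14.3% ± 2.61 of the markers, so the size of their values is uncertain. Grid1, Gria2 and Gria4 stood there at 33.9%, 28.9% and 36.3%. In astrocytes Gria2 was higher than in oligodendrocytes by 2.81 and Grid1 by 1.86. In the inhibitory against excitatory comparison of that fit, where the neuronal sums were not altered, the standard errors of Gria4 and Grid1 were 0.30 and 0.18 in place of 0.08 and 0.06.

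**Figure D4:**
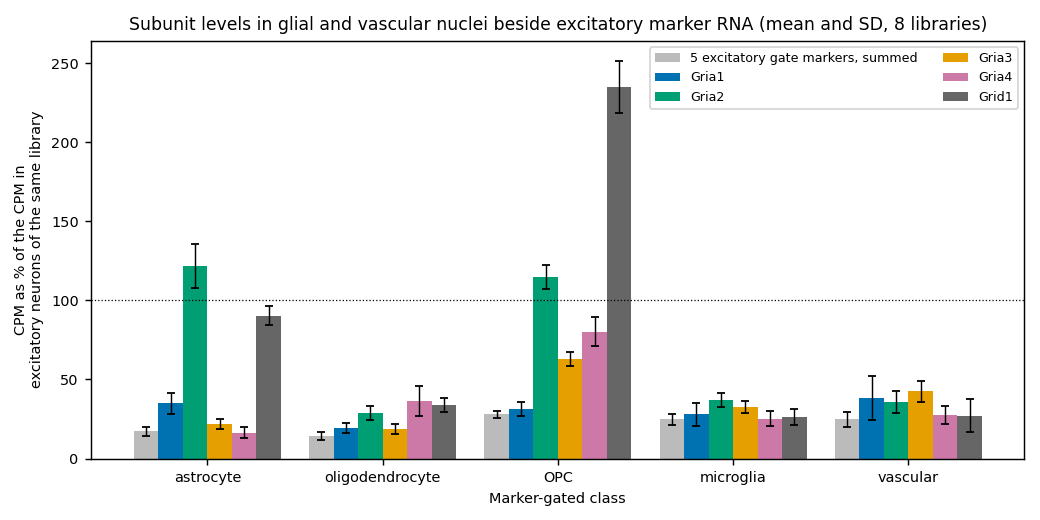
Level of each subunit gene in glial and vascular classes as a percentage of its CPM in excitatory neurons of the same library (bars: mean of 8 libraries, error bars: SD), beside the summed level of 5 excitatory gate markers (light grey). The dotted line marks the excitatory level, which Gria2 exceeds in astrocytes (121.7%) and OPCs (114.9%) and Grid1 exceeds in OPCs (235.0%).

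The share of nuclei with at least 1 UMI showed the same pattern when each nucleus was thinned to 2000 UMIs. Grid1 was detected in 82.0% ± 5.60 of 2061 thinned OPCs and 19.1% ± 6.25 of 501 thinned microglia (88.2% and 15% without thinning). In layer 5/6 NP neurons Grid1 was detected in 72.8% ± 2.36 of thinned nuclei and in 94.5% without thinning. Its order between OPCs and these neurons thus turned with depth. Gria2 was detected in 98.0% ± 1.35 of OPCs and 96.2% ± 1.62 of 3830 astrocytes, against 71.3% ± 7.43 of microglia. Most microglia were too shallow for thinning: 3243 were gated, with a median of 1425 UMIs. Gria4 was detected in 26.2% ± 4.91 of thinned astrocytes and 37.1% ± 8.74 of thinned microglia, but in 34.7% and 31.7% without thinning, so no order is read from these shares.

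The genes most like each member across the 15 classes were ranked by Pearson's r of mean log2 CPM among 20965 genes, as a description. Gria1 was closest to Slc12a1, Rbfox1 and Gm14399 (r = 0.91 each), of which Slc12a1 was at only 5.67 CPM in Sst interneurons. Gria2 was closest to Gm21954 (0.93), Map2 and Fmn2 (0.92 each), and Grid1 to Map2 (0.92), Kcnd2 (0.90) and Chek1 (0.88). Chek1 was at only 0.76 to 2.83 CPM over the classes. Map2 encodes a dendritic microtubule protein and Kcnd2 a voltage-gated potassium channel. Gria3 was closest to Cntn4, Gabra3 and Rbfox1 (0.91 each), and Gria4 to Usp13 (0.92), Snap91 and Zfr2 (0.90 each). Within the family, Gria2 and Grid1 (r = 0.85) and Gria1 and Gria3 (r = 0.82) were most alike, and Gria1 and Grid1 least (r = 0.32). The classes share libraries, so these values carry no test.

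The partners of the receptors also differed between broad classes. Products of auxiliary subunit genes bind the AMPA receptor and set its gating and traffic. Of 12 such genes, 7 were called higher and 5 lower in inhibitory than in excitatory nuclei. Of all genes 28.8% were higher and 30.9% lower there. In the fit with background subtracted from the glial sums, 6 were called higher, without Cacng8. That fit did not alter the neuronal sums, and Cacng8 went from log2 0.26 (SE 0.08) to 0.27 (SE 0.12). In OPCs against oligodendrocytes 8 were higher and 0 lower (27.9% and 25.4% of all genes), with a median log2 difference of 1.57 against 1.63 for the members. With the background subtracted 8 were still called higher. That fit also called Cacng2, Cacng3 and Cnih3 lower, but their OPC levels (29.3, 47.4 and 12.6 CPM, against 143, 251 and 60.6 CPM in excitatory neurons) lay below the 27.9% that the summed markers reached there. Before subtraction they did not pass (log2 -0.16, 0.09 and -0.10), and they are not counted as lower. As examples chosen after the values were seen, Cacng4 was at 671 ± 89.0 CPM in OPCs and 7.47 ± 4.0 CPM in oligodendrocytes (log2 6.41, SE 0.19), and Shisa6 at 168 ± 29.4 and 15.7 ± 6.72 CPM (log2 3.29, SE 0.16, edgeR adjusted p = 2.05e-24). Shisa6 reached 464 ± 125 CPM in Sst interneurons, the class with the highest Gria1. Of 16 trafficking and anchoring genes, 3 were higher and 10 lower in inhibitory nuclei. Among them Grip1, a scaffold that binds GluA2 and GluA3, was at 3478 ± 414 against 312 ± 60.7 CPM (log2 3.32, SE 0.10). In OPCs 8 of these were higher and 1, Dlg1, lower than in oligodendrocytes; with the background subtracted 5 were higher and 2, Dlg1 and Gripap1, lower, and the median log2 difference went from 0.30 to 0.02.

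Of the genes listed as partners of the delta receptors, 7 could be tested. Of these 6 were higher in OPCs than in oligodendrocytes, where 27.9% of all genes were higher, with a median log2 difference of 1.68 over all 7 (2.43 with the background subtracted). In inhibitory against excitatory nuclei 1 was higher and 3 lower (28.8% and 30.9% of all genes). In the fit with the background subtracted, where the neuronal sums were not altered, 0 were called higher and 2 lower. Of the 3 RNA editing enzyme genes, Adarb1, whose product edits the Q/R site of Gria2 RNA, was higher in inhibitory than in excitatory nuclei (169.8 ± 12.3 and 123 ± 9.78 CPM, log2 0.29, SE 0.07, edgeR adjusted p = 0.000205). It was also higher in OPCs than in oligodendrocytes, by 0.93 on the log2 scale (SE 0.11), as was Adarb2 by 3.95 (SE 0.17). Adar was not called there (log2 0.08, edgeR adjusted p = 0.518), but was called lower in OPCs with the background subtracted (-0.37, edgeR adjusted p = 0.0196). Adarb2 was higher in inhibitory than in excitatory nuclei too, but it served as a gate marker of an interneuron branch, and that difference is no result.

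Between genotypes no member was called in any class. Of 75 tests, 5 members in 15 classes, 0 passed an adjusted p of 0.05 in edgeR, as did 0.0% of the 161100 tests of all genes. Unadjusted two-sided p-values were under 0.05 in 2 of the 75, against 2.4% of tests of all genes. DESeq2 called 0 of 75, and 0 had an unadjusted p under 0.05. The log2 differences of Chd8 het from WT ran from -0.25 to 0.36 with a median of 0.02, 41 higher and 34 lower, and their median standard error was 0.15. In counts simulated for layer 2/3 IT neurons and OPCs, this fit recovered 7.58% and 10.6% of 1.5-fold changes in genes picked at random. For 2-fold changes it recovered 60% and 65.1%. Changes as small as those of the members would thus seldom be called, and the 0 calls do not show equal levels. With a term for each pair (replicate block) 0 of 75 were called and 10 had an unadjusted p under 0.05, against 5.88% of all tests, and the smallest adjusted p was 0.507. The block called 0.0155% of the 161100 tests. WT and Chd8 het libraries did not overlap in 2 of the 75 cases, against 1.99% of all gene and class pairs.

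The member with the largest difference was Grid1 in Sst interneurons. It was at 268, 293.5, 310.1 and 352 CPM in the WT libraries and 340.0, 504, 365 and 382 CPM in the Chd8 het libraries, from 87 to 280 UMIs per library. The groups overlapped, and the Chd8 het library was higher in 4 of 4 pairs. The log2 difference was 0.36 (SE 0.16, unadjusted p = 0.0352, edgeR adjusted p = 1.0), and the means differed by 63.7 CPM within the single-indexed and 120.1 CPM within the dual-indexed libraries. Gria3 in the same class was at 1455, 1369.7, 1428 and 1312 CPM in WT and 1268.5, 1036, 1295 and 1213 CPM in Chd8 het libraries, with no overlap. Its log2 difference was -0.23 (SE 0.13, unadjusted p = 0.0882, edgeR adjusted p = 1.0), with differences of -159.9 and -216 CPM within index types. Sst interneurons numbered 34 to 80 per library. The summed excitatory markers in this class ranged over 204 to 269 CPM in WT and 209 to 335 CPM in Chd8 het libraries, and their part in these values was not tested.

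Gria4 had a positive log2 difference of Chd8 het from WT in 11 of 15 classes and a negative one in 4, among them the 3 interneuron classes, and none passed the adjusted test. In Sst nuclei it was -0.08 (SE 0.15), with differences of -297.7 and 142.1 CPM within the single- and dual-indexed libraries. In Lamp5 nuclei it was at 1038, 1109, 1332 and 1325 CPM in WT and 982, 1021, 1025 and 1019.6 CPM in Chd8 het libraries, with no overlap. The log2 difference was -0.25 (SE 0.11, unadjusted p = 0.0434, edgeR adjusted p = 0.999; adjusted p = 0.592 with the replicate block), and the means differed by -181.4 CPM within the single-indexed and -196.8 CPM within the dual-indexed libraries. In Pvalb nuclei it was at 1730.1, 2065, 1877 and 2061 CPM in WT and 1652, 1737, 1665 and 1851 CPM in Chd8 het libraries. These groups overlapped, the Chd8 het library was lower in 4 of 4 pairs, and the log2 difference was -0.20 (SE 0.10, edgeR adjusted p = 0.999; adjusted p = 0.507 with the replicate block), with differences of -145.1 and -269.4 CPM within index types. In layer 2/3 IT neurons the same gene leaned the other way, at 825, 753, 1058 and 876 CPM in WT and 958, 989.8, 999 and 1034 CPM in Chd8 het libraries (differences of 37.3 and 197.8 CPM within index types). The summed excitatory markers had higher means in Chd8 het libraries in both classes, with ranges that overlapped: they ranged over 506 to 661 CPM in WT and 651 to 777 CPM in Chd8 het Lamp5 nuclei, and over 154 to 211 and 207 to 272 CPM in Pvalb nuclei. Their part in the Gria4 values was not tested.

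Gria1 was lower in the Chd8 het library of 4 of 4 pairs in layer 2/3, 4/5 and 5 IT neurons and in Pvalb interneurons. In layer 2/3 IT neurons it was at 580.0, 948, 573 and 873 CPM in WT and 563, 890.4, 442 and 748 CPM in Chd8 het libraries, so that the dual-indexed libraries were high and the single-indexed ones low in both groups. The log2 difference was -0.19 (SE 0.24, edgeR adjusted p = 1.0) without the pair term and -0.20 (SE 0.07, edgeR adjusted p = 0.647) with the replicate block, and the means differed by -73.8 and -91.6 CPM within index types. In layer 4/5 IT, layer 5 IT and Pvalb nuclei the blocked log2 differences were -0.24 (SE 0.08), -0.14 (SE 0.06) and -0.11 (SE 0.06), and none passed (edgeR adjusted p = 0.892 in layer 5 IT and 0.798 in Pvalb nuclei). Within the single- and dual-indexed libraries the means differed by -32.2 and -73 CPM, -25.3 and -76 CPM, and -20.2 and -176.1 CPM in that order. Over all 15 classes Gria1 was lower in 9 and higher in 6, so this lean did not extend to every class. The higher classes included astrocytes, OPCs, microglia and vascular nuclei. In each of these the summed excitatory markers also had a higher mean in Chd8 het libraries (519.1 CPM in WT and 620.8 CPM in Chd8 het astrocytes). In oligodendrocytes the markers were higher too (432.7 and 520.5 CPM) but Gria1 was not (log2 -0.07). Their part in the directions of any member was not tested.

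**Figure D5:**
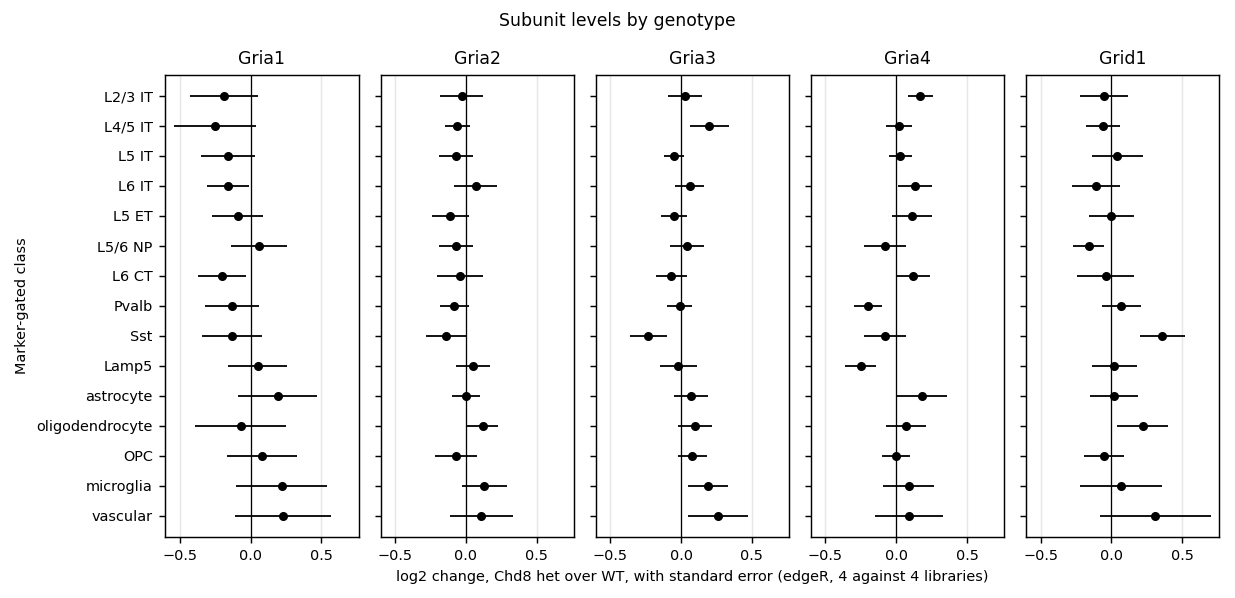
Log2 change of each subunit gene in Chd8 het over WT libraries (x axis, point, with its standard error as a line; edgeR, 4 against 4 libraries) in each of the 15 classes (y axis). The values run from -0.25 to 0.36 and none passed the adjusted test.

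The subunit mix differed between genotypes by a median absolute difference of 0.948 percentage points over 60 shares, Gria1 to Gria4 in 15 classes. An exact two-sided permutation of 4 against 4 libraries cannot go below p = 0.0286, so a single share could not pass adjustment over 60 tests, and the 0 that passed say nothing about stability. The largest difference was Gria4 in Lamp5 nuclei, 4.22 points lower in Chd8 het (difference -4.22, exact permutation p = 0.0286, the smallest this design allows, adjusted p = 0.992). Gria4 in Pvalb nuclei differed by -1.68 points (exact permutation p = 0.0571, adjusted p = 0.992).

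In the 15 classes edgeR called 0 of 152 tests of auxiliary subunits, 0 of 215 of trafficking genes, 0 of 88 of delta receptor partners and 0 of 45 of editing enzymes, with unadjusted p under 0.05 in 2, 3, 3 and 4 of them. The replicate block in edgeR called 0 as well, with 21, 7, 9 and 8 of them under 0.05. Over all genes 2.4% of tests were under 0.05 without and 5.88% with the block. DESeq2 without pairs called 0, with 3, 0, 1 and 1 under 0.05. DESeq2 with the replicate block called Shisa6, an auxiliary subunit that binds AMPA receptors at synapses, lower in Chd8 het layer 4/5 IT neurons (log2 -0.81, SE 0.15, DESeq2 adjusted p = 0.000402) and over all gated nuclei (log2 -0.39, SE 0.09, DESeq2 adjusted p = 0.00792). This fit called 0.0468% of all genes lower in layer 4/5 IT neurons and 0.124% over all gated nuclei. Over all gated nuclei Shisa6 was at 71.8 ± 18.7 CPM in WT and 56.3 ± 16.8 CPM in Chd8 het libraries and lower in 4 of 4 pairs, and edgeR without pairs gave -0.38 (SE 0.25, unadjusted p = 0.169, edgeR adjusted p = 1.0). The other genes named by rule over all gated nuclei were not called: Cnih3 differed by 0.20, Grip2 by 0.15, Olfm1 by 0.12, C1ql3 by 0.10, Cbln1 by 0.23 (0.353 CPM in WT and 0.416 CPM in Chd8 het libraries), Adar by 0.10 and Adarb2 by -0.10 on the log2 scale.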

How the data were processed

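UMI counts were used as deposited: per the files, each library is a matrix of whole-number counts per gene and barcode. Per the submitters' processing notes, the authors' processing named mm10, STAR 2.7.9a, STARsolo and Cell Ranger, with no role for each; strandedness and intron counting are not given in the sources used here. Libraries were 10x 3′ v3, per the labels.

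Barcodes with at least 500 genes and at most 5% mitochondrial UMIs were kept (82168). A nucleus was gated to the class whose marker sum, scaled to the top 1% of nuclei, was highest, with at least 2 markers detected and the second class at most 0.5 of the best (0.6 for excitatory types and interneuron branches; types within a branch needed 1 marker and 0.5). Nuclei scoring in 2 classes (12101) were left out, 9565 lay near the ratio, and no doublet caller was run. Of 43454 excitatory nuclei 22147 were given a type, and of 4383 inhibitory nuclei 2810. The gate's thresholds, a first version with 3 markers and the pooling of endothelial, mural and fibroblast nuclei were settled after nucleus counts were seen. Striatal-like nuclei (557) stayed out of all sums.

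Genotype was tested with edgeR 4.0.16 (quasi-likelihood, TMM, filterByExpr with a minimum count of 10, sex as covariate, R 4.3.3), with Benjamini-Hochberg adjustment over all genes of a class; broad classes with the library as a term; DESeq2 1.42.0 was an alternative. The broad fit left out endothelial nuclei (29 in 1 library). The scripts were tested on simulated data. Libraries of the same sex and number were taken as pairs. Of 72 correlations of their deviations from their genotype means (4 pairs in 18 sums), all 72 were over 0.1 (0.14 to 0.62). The number is also the index type, so these correlations cannot tell litter pairs from a shared index type. The pairing remains an assumption. Log2 values of the neighbour tests and like genes take CPM + 1. Index type ratios take mean CPM with nothing added, and edgeR and DESeq2 values are fitted to counts. Without a pair term, genotype p-values rest on the spread between libraries, each from 1 mouse, and this spread includes the index type. With the replicate block they rest on the spread within the assumed pairs. P-values of class comparisons rest on differences within libraries.

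The members and gene lists were chosen with earlier results of these data known. Named by rule were the 5 members, 3 like genes for each, and from each list every gene called or otherwise the 2 with the smallest p. Of 32285 genes 32158 matched the GENCODE M21 annotation. One listed gene, Grasp1, was not used here. Values of some listed genes and 1 sequence are not reported here.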

Additional observations from a re-analysis of the deposited data

Results flagged for a closer look

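In 5 of 150 groups of 4 libraries, 1 library lay far from the other 3 by Dixon's criterion, which chance gives in about 1 in 20 groups. Gria2 in layer 4/5 IT neurons was 1835.4 CPM in WT male replicate 1, with the next WT library at 1625.6 CPM. Gria3 in layer 6 CT neurons was 1211.1 CPM in Chd8 het male replicate 2, with the next at 1559.2 CPM. In Lamp5 interneurons Chd8 het male replicate 1 was lowest for both Gria4 (982.1 CPM, next 1019.6 CPM) and Grid1 (329.9 CPM, next 488.7 CPM). Gria3 in oligodendrocytes was 220.4 CPM in WT female replicate 2, with the next at 181.4 CPM.

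Gria2 in vascular nuclei moved in opposite directions in the sexes: the log2 difference of Chd8 het from WT was 0.43 in males and -0.22 in females. The test of the difference itself was not called (log2 0.66, SE 0.45, edgeR adjusted p = 1.00), and edgeR called 0 sex by genotype terms of the members. Of 75 such terms 1 had an unadjusted p under 0.05, Gria4 in Sst interneurons (log2 0.64, SE 0.28, unadjusted p = 0.0372, edgeR adjusted p = 1.00).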

How the results depend on the processing

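Genotype calls of the members were 0 under all 21 alternatives, including the replicate block (0) and each library left out (0 to 0). Simulated 1.5-fold changes were seldom recovered by the main fit, so these counts of 0 do not show equal levels. Of 1575 log2 values under these settings 131 changed sign (8.32%), and 26 of 75 member and class pairs never did. The replicate block called 25 of 161100 tests of all genes, and DESeq2 called 3 without and 60 with it. Share tests passed 0 times, also with the replicate block (0), but over 4 pairs the smallest possible p is 0.125, so these counts cannot show stability. Neighbour tests passed 22 to 26 times in place of 27, and without 1 library 22 to 23. The highest class of each member was the same in 70 of 70 checks and the lowest in 69, the exception being Grid1 without Chd8het male replicate 2.

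Of 270 broad-class values under 18 alternatives 260 kept direction and call. With the excitatory background subtracted from the glial sums, Gria1 in OPCs against oligodendrocytes was -0.498. In that fit Gria4 and Grid1 in inhibitory against excitatory neurons, whose sums were not altered, were 0.273 and -0.323 without a call. Gria3 in astrocytes against oligodendrocytes was -0.010 there. That Gria3 difference was -0.059 with the looser gate and called with the stricter gate (0.186), without the top 5% of nuclei by UMIs (0.193), thinned (0.275) and in DESeq2 (0.141). With 1 library left out it ran from 0.116 to 0.156 and was called without WT male replicate 1 (0.156). The cause was not tested. The gate with 3 markers and all settings for the class order were added after seeing the data. Without a count filter edgeR called Shisa6 in layer 4/5 IT neurons (-0.86) and Adarb2 in vascular nuclei (-1.22). Shallow microglia and vascular nuclei limit what low levels there can show.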
